A study of Mus musculus with 8 samples.

Results

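Rragd encodes RagD, a small GTPase of the lysosome surface. It was examined here together with its paralogs Rraga, Rragb and Rragc, the folliculin complex genes Flcn, Fnip1 and Fnip2, and the transcription factor genes Tfeb, Tfe3 and Mitf. These 10 genes, of 22180 genes with a value, were taken by name, and each was read by 1 probe set. Rragd was picked because of its difference between the groups in these same arrays, so its values are given as a description with no test of that difference. The others were added because of what they do, with earlier results of these data known.

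The livers came from C57BL/6N mice aged 27 days, and each was measured on 1 whole-transcript array from its total RNA. The 4 knockout (KO) mice had the genotype Albumin-Cretg/wt:Sco1fl/fl, that is, Cre under the albumin promoter, which hepatocytes use, and 2 floxed alleles of Sco1. Sco1 encodes a mitochondrial copper chaperone needed to assemble cytochrome c oxidase. The labels of the 4 control mice, called wild-type (WT), do not match each other. The titles give all 4 as Sco1fl/fl. The genotype field gives 2 kinds, with Cre and 1 floxed allele in mice 1 and 3 (Albumin-Cretg/wt:Sco1fl/wt) and 2 floxed alleles without Cre in mice 2 and 4 (Albumin-Crewt/wt:Sco1fl/fl). Groups follow the titles, and each comparison of control kinds below rests on the genotype field. Sco1 was not measured by cell type. The arrays measured whole liver, in which fewer cells of a type and less RNA per cell cannot be told apart.

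Rag GTPases work as pairs, in which RagA or RagB binds RagC or RagD. When amino acids are plentiful the pair holds the kinase complex mTORC1 on the lysosome, where it is switched on. Folliculin, the product of Flcn, acts with Fnip1 or Fnip2 as the GTPase-activating protein of RagC and RagD. In that state RagC and RagD present TFEB, TFE3 and MITF to mTORC1, which phosphorylates them and keeps them out of the nucleus. TFEB and TFE3 that reach the nucleus bind short motifs around the letters CACGTG in promoters of lysosomal genes, and RRAGD is among their known targets.

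The promoter windows of the members are shown because this motif is the known point of contact between the factors and their targets. RefSeq windows of build GRCm38.p6, from 250 bases before to 50 bases after each annotated start, were matched for 10 of 10 members, with 15 windows in all. CACGTG, which reads the same on both strands, stood in 3 of the 15 windows and in 7.15% of all 32851 windows. It occurred 5 times, in Rragb, Rragc and Fnip1, and each of the 5 copies was followed by A on the gene's strand, which is TCACGTG when read on the other strand. TCACGTG on either strand, which overlaps the first motif, stood in the same number of windows, 3 of 15, and in 3.77% of all windows. TCATGTG, known as a site of MITF in pigment cell genes, was found on neither strand in a member's window, and 3.77% of all windows held it. The 30 bases around each copy are given below on the gene's strand, 5′ to 3′, with CACGTG in capitals. They lie at chr4:123917309-123917338 (+) for Rragc, at chrX:153139819-153139848 (+), chrX:153139910-153139939 (+) and chrX:153139943-153139972 (+) for Rragb, and at chr11:54438092-54438121 (+) for Fnip1.
Rragc: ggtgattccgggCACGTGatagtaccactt
Rragb, first copy: gagagcccgggcCACGTGatggcgggtggc
Rragb, next copy: aaagggtagcggCACGTGacaggccctggg
Rragb, last copy: acggcaggttccCACGTGatcctggcctgc
Fnip1: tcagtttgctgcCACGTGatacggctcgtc

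The motif began 112 bases before the start of Rragc, 75 before that of Fnip1, and 127, 36 and 3 before that of Rragb. The window of Rragd, the member with the large difference, held none of the 3 motifs. Its 250 bases before the start, at chr4:32982748-32982997 (+) of the same build, are shown, and the last 50 bases of the window are not.
Rragd: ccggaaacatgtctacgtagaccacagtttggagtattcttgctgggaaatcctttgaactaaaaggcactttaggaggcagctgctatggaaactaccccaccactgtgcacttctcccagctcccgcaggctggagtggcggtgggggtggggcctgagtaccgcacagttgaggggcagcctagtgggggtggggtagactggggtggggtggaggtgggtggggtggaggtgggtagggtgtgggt

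A match is a run of letters and no measured binding site, and a window without one says nothing about sites elsewhere. The windows of Flcn, Fnip2, Rraga, Tfeb, Tfe3 and Mitf also held none of the 3 motifs.

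Rragd was higher in the KO livers, and it was the member whose values set the groups apart. The deposited RMA expression values (log2) were 7.59, 6.90, 7.58 and 7.94 in KO mice 1 to 4, against 6.14, 6.16, 6.21 and 5.93 in WT mice 1 to 4. Every KO liver lay above every WT liver, and the lowest KO value was 0.69 above the highest WT value. Means were 7.50 ± 0.43 in KO and 6.11 ± 0.13 in WT livers (SD, n = 4 each), a difference of 1.39 ± 0.18 log2 units (limma SE) or 2.62-fold. By size it ranked 6 among the positive differences of the 22180 genes. Groups did not overlap for 10.7% of all genes, and nothing is read from that share for Rragd, since it was chosen on this comparison.

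The KO mice differed among themselves more than the WT mice did. KO mouse 2 stood 0.79 log2 units above the WT mean, or 1.73-fold. KO mouse 4 stood 1.82 above it, or 3.54-fold, and mice 1 and 3 lay between at 1.48 and 1.47. With each array left out in turn, the difference of Rragd ran from 1.24 without KO mouse 4 to 1.59 without KO mouse 2. The KO mean was 1.32 ± 0.23 above the controls with Cre and 1 floxed allele, and 1.45 ± 0.23 above the controls without Cre (SE of a fit with 3 genotype classes).

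**Figure D1:**
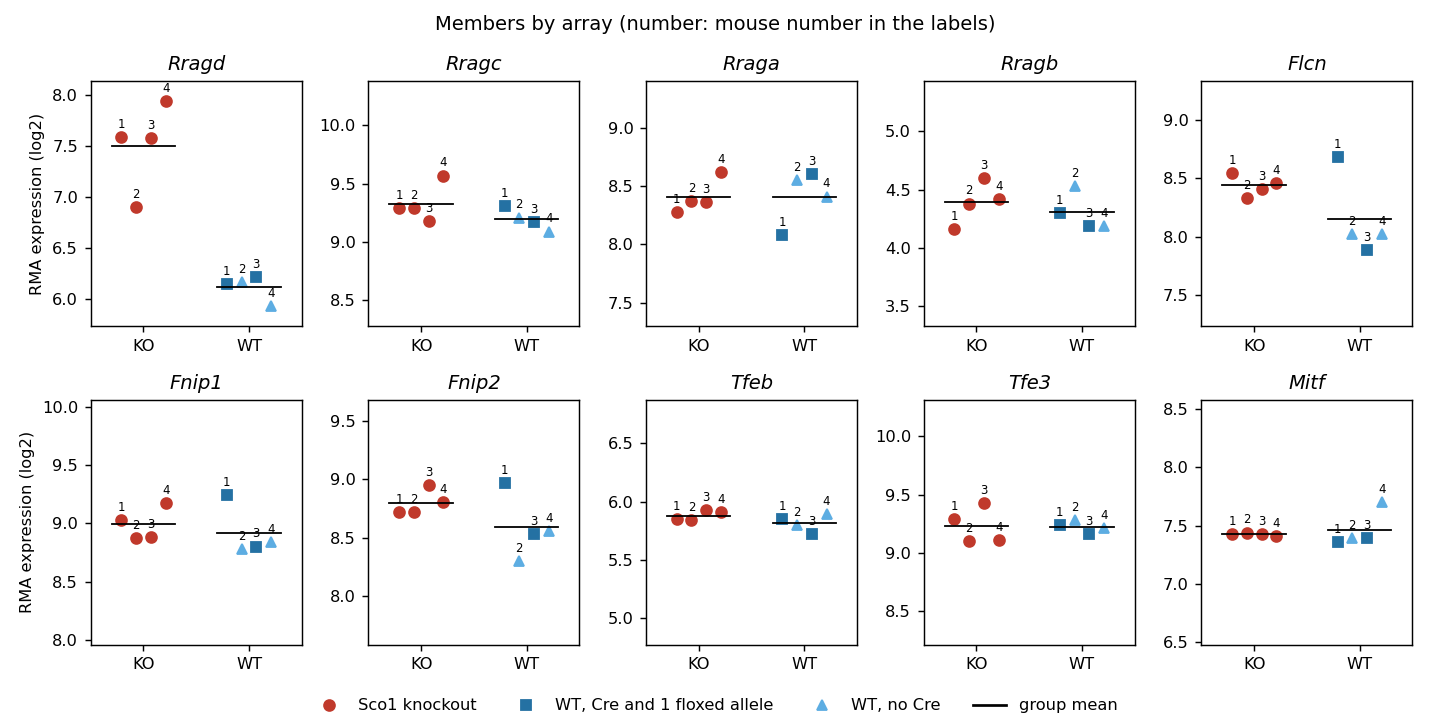
RMA expression (log2) of the 10 members in each liver, KO on the left and WT on the right of each panel, with mouse numbers, group means as lines and the control genotypes as separate symbols. The 4 KO values of Rragd (6.90 to 7.94) lie above all WT values (5.93 to 6.21), while WT mouse 1 is the highest liver of all 8 for Flcn, Fnip1 and Fnip2. Axes span at least 2 log2 units but start at different levels, since levels of different probe sets are not comparable.

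None of the other 9 members passed in limma at a threshold of 0.05 on p-values adjusted by Benjamini-Hochberg over all 22180 genes, where 1.15% of all genes passed. None had an unadjusted p under 0.05 either, against 16.7% of all genes. Of the 9 differences 7 were positive, with a median of 0.07, while 57.2% of all genes were positive with a median of 0.03. Groups overlapped for all 9, and 0 of the 9 passed under any of the 19 alternative settings (Rragb and Tfeb were not tested in the 1 that leaves out dim genes).

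**Figure D2:**
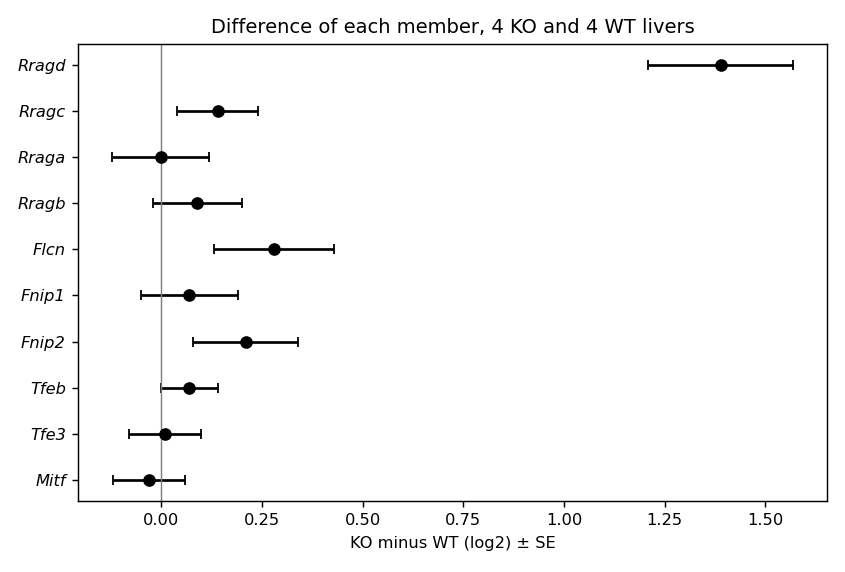
Difference of each member, KO minus WT (log2, x axis), with limma standard errors as bars, from 4 KO and 4 WT livers. Rragd stands at 1.39, and the other members lie between -0.03 (Mitf) and 0.28 (Flcn).

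Rragc encodes RagC, the closest relative of RagD and its alternative partner in the pair. It read 9.29, 9.29, 9.18 and 9.57 in KO mice 1 to 4, against 9.31, 9.21, 9.17 and 9.09 in WT mice 1 to 4. KO mouse 4 lay above every other liver, and the other KO values lay within the WT range. The difference was 0.14 ± 0.10 (SE), with adjusted p = 0.497 (limma), and 0.06 without KO mouse 4. Its 95% interval of -0.07 to 0.35 ends at 1.27-fold, below the 2.62-fold difference of Rragd, which was itself chosen for its size.

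Rraga and Rragb encode RagA and RagB, the other side of the pair. Rraga ran from 8.28 to 8.62 in KO and from 8.08 to 8.60 in WT livers, a difference of -0.00095 ± 0.12 (limma, adjusted p = 0.998; 95% interval -0.27 to 0.27). Rragb ran from 4.16 to 4.60 in KO and from 4.19 to 4.53 in WT livers, a difference of 0.09 ± 0.11 (limma, adjusted p = 0.724; 95% interval -0.16 to 0.33), and 0.02 to 0.16 with each array left out. Its probe set read below the medians of all probe sets on these arrays, which lay at 5.79 to 5.89, so a change of Rragb could be hard to see here.

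The 3 folliculin complex genes had positive differences, and in all 3 a single WT liver overlapped the KO group. Flcn encodes the catalytic protein of the complex. It read 8.55, 8.33, 8.41 and 8.46 in KO mice 1 to 4, against 8.68, 8.02, 7.89 and 8.02 in WT mice 1 to 4. WT mouse 1 was the highest of all livers, 0.71 above the mean of the other WT mice, and those other WT mice lay below every KO mouse. With all arrays the difference was 0.28 ± 0.15 (SE), with adjusted p = 0.374 (limma). Without WT mouse 1 it was 0.46 ± 0.09, with adjusted p = 0.0504 (limma), just short of the threshold that 0.636% of all genes passed in that fit. Against the controls with Cre alone it was 0.15.

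Fnip2, a folliculin partner, read 8.72, 8.72, 8.95 and 8.81 in KO mice 1 to 4, against 8.97, 8.30, 8.53 and 8.56 in WT mice 1 to 4. The order of the livers resembled that of Flcn, with WT mouse 1 on top by a small margin and the other WT mice below all KO mice. The difference was 0.21 ± 0.13 (SE; limma, adjusted p = 0.435) with all arrays and 0.33 ± 0.10 (limma, adjusted p = 0.155) without WT mouse 1. It was 0.11 without WT mouse 2, 0.05 against the controls with Cre alone and 0.37 against those without Cre.

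Fnip1, the other partner, read 9.03, 8.87, 8.88 and 9.17 in KO mice 1 to 4, against 9.24, 8.78, 8.80 and 8.84 in WT mice 1 to 4. WT mouse 1 was again the highest liver, and the gap between KO and the other WT mice was small. The difference was 0.07 ± 0.12 (SE; limma, adjusted p = 0.798) with all arrays and 0.18 ± 0.09 (limma, adjusted p = 0.382) without WT mouse 1. Without WT mouse 1 the groups thus did not overlap for 3 of the 9 members, Flcn, Fnip1 and Fnip2, and for 16.9% of all genes. That array was singled out after its values were seen.

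**Figure D3:**
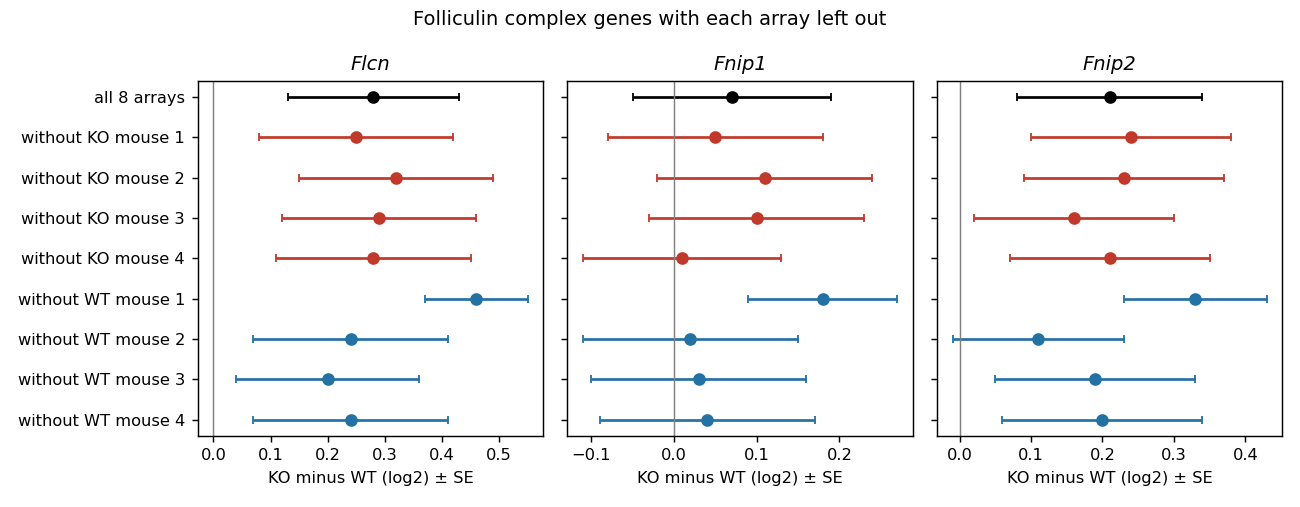
Difference, KO minus WT (log2, x axis) with limma standard errors, of Flcn, Fnip1 and Fnip2 with all 8 arrays (black) and with each KO (red) or WT (blue) mouse left out. Leaving out WT mouse 1 gives the largest difference of each gene, 0.46, 0.18 and 0.33, and the other settings lie between 0.20 and 0.32, 0.01 and 0.11, and 0.11 and 0.24.

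In Flcn, Fnip1 and Fnip2 KO mouse 1 did not stand apart from the other KO mice. Mouse number 1 of both groups stood apart in Dbp, a clock output gene with a strong daily rhythm in liver, named here after its values were seen. Dbp read 9.66, 7.33, 7.26 and 6.87 in KO mice 1 to 4, against 9.86, 7.11, 7.08 and 7.33 in WT mice 1 to 4. Only the mouse 1 livers were high, the labels give no time of collection, and the cause was not tested. Without both mouse 1 arrays the differences of Flcn, Fnip2 and Fnip1 were 0.42, 0.36 and 0.16, with adjusted p of 0.0947, 0.188 and 0.493 (limma), and that of Rragd was 1.37. For Rragd the mouse 1 livers lay inside the range of their groups.

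Tfeb, Tfe3 and Mitf encode the factors that the Rag and folliculin proteins hold in the cytoplasm. This control acts on the proteins' location, which these arrays do not measure. Tfeb ran from 5.84 to 5.93 in KO and from 5.72 to 5.89 in WT livers, a difference of 0.07 ± 0.07 (limma, adjusted p = 0.673; 95% interval -0.09 to 0.22). Its values lay near the medians of all probe sets, and its mean of 5.85 lay below the median of the tested genes, 6.51. A change of Tfeb could thus be hard to see here. Tfe3 ran from 9.10 to 9.43 in KO and from 9.16 to 9.28 in WT livers, a difference of 0.01 ± 0.09 (limma, adjusted p = 0.967; 95% interval -0.18 to 0.20).

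Mitf is best known from pigment cells and is also active in macrophages and mast cells. It read 7.43, 7.44, 7.43 and 7.41 in KO mice 1 to 4, against 7.36, 7.39, 7.39 and 7.70 in WT mice 1 to 4. The KO livers were nearly equal, with an SD of 0.01, and WT mouse 4 stood above all others. The difference was -0.03 ± 0.09 (limma, adjusted p = 0.885; 95% interval -0.23 to 0.16), and 0.05 without WT mouse 4.

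The genotypes of the controls allow a further comparison, that of controls with Cre and 1 floxed allele against controls without Cre. Rragd was not chosen on this comparison, but its values in these same WT mice entered the choice. No gene passed between the control kinds (0 of 22180, limma with Benjamini-Hochberg adjustment), and 3.03% of all genes had an unadjusted p under 0.05. Rragd averaged 6.18 with Cre and 6.05 without, a difference of 0.13 ± 0.26 (SE, unadjusted p = 0.628 in the limma fit across all genes). Fnip2 averaged 8.75 with Cre and 8.43 without, a difference of 0.32 ± 0.16 (SE, unadjusted p = 0.0785 in the same limma fit), the smallest p of the 10 members. Flcn stood 0.27 ± 0.21 higher with Cre. With 2 mice of each kind, KO livers in the estimate of the spread, and WT mouse 1 among those with Cre, these differences are poorly determined.

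The 6 lists of genes that act upstream of or beside the members held 56 names, of which 52 were measured. None of the 52 passed the limma test. Before adjustment 4 lay higher and 7 lower at a p under 0.05, a level that 16.7% of all genes reached, and the median difference was -0.02. Of 9 genes for Ragulator, the lysosomal anchor of the Rag proteins, and for other Rag partners, 3 were positive. The anchor subunit gene Lamtor3 came closest. It read 10.30, 10.30, 10.25 and 10.39 in KO mice 1 to 4, against 10.13, 9.93, 9.98 and 9.94 in WT mice 1 to 4. The groups did not overlap, and the difference was 0.32 ± 0.08 (SE; limma, adjusted p = 0.0783, and 0.0397 to 0.338 over the alternative settings). Lamtor1, which fixes the complex to the lysosome membrane, differed by 0.21 ± 0.09, and the arginine sensor gene Slc38a9 by -0.26 ± 0.11, with adjusted p of 0.271 and 0.275 (limma).

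Of 10 measured genes of GATOR and KICSTOR, the complexes that restrain the Rag pair when amino acids are short or relieve that restraint, 2 were positive. Seh1l, which is also a nuclear pore gene, differed by 0.26 ± 0.08, Sec13, shared with the nuclear pore and vesicle coats, by -0.21 ± 0.09, and the GATOR subunit gene Depdc5 by -0.22 ± 0.09. Their adjusted p were 0.134, 0.255 and 0.264 (limma). Seh1l was read by 2 probe sets, and the mean of both differed by 0.05 (limma, adjusted p = 0.77). Of 7 amino acid sensor genes 2 were positive. The sestrin genes Sesn3 and Sesn1 stood at -0.29 ± 0.10 and -0.28 ± 0.11, and the arginine sensor gene Castor1 at 0.14 ± 0.08, with adjusted p of 0.195, 0.243 and 0.41 (limma).

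Of 10 genes of mTORC1 and its TSC brake 4 were positive, and Tsc2, Rhebl1 and Tsc1 had the smallest p, at -0.14 ± 0.07, -0.15 ± 0.12 and 0.11 ± 0.10. Single KO livers moved these small values: Rhebl1 stood at -0.05 without mouse 4 and -0.23 without mouse 1, and Tsc1 at 0.04 without mouse 3 and 0.20 without mouse 1. Of 9 genes of AMPK, which binds folliculin through its FNIP partners, and of its activator LKB1, 7 were positive. The subunit genes Prkag1 and Prkaa2 stood at -0.21 ± 0.08 and 0.22 ± 0.10, and the LKB1 gene Stk11 at -0.13 ± 0.08. Prkaa2 stood at 0.12 without KO mouse 4, and without both mouse 1 arrays Prkag1 stood at -0.13 and Stk11 at -0.07. Of 7 measured genes for TFEB kinases, its calcineurin phosphatase and its nuclear export 6 were positive. The lysosomal calcium channel gene Mcoln1 stood at 0.27 ± 0.09, the exportin gene Xpo1 at -0.22 ± 0.08 and the phosphoserine-binding adaptor gene Ywhaz at 0.11 ± 0.07. None of these 9 had an adjusted p below 0.18 (limma; 0.633 at most).

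Downstream, known TFE target genes were mostly on the positive side, but few passed the test. Of 42 listed genes 37 were measured, 3 rose, none fell and 34 did not pass, where 0.433% of all genes rose and 0.717% fell. Positive differences were found for 33 of the 37, with a median of 0.14, against 57.2% and a median of 0.03 over all genes. Before adjustment 15 lay higher and 2 lower at a p under 0.05 (limma), a level that 16.7% of all genes reached. Mean levels of the list ran from 9.95 to 10.06 in KO and from 9.73 to 9.85 in WT livers. The list was written with the rises of Gpnmb and Cd63 already known, so its counts are no independent evidence. Without Gpnmb and Cd63 1 of 35 rose, 31 were positive and the median was 0.12. Of these 35 genes 13 lay higher and 2 lower at an unadjusted p under 0.05 (limma).

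Gpnmb, a lysosomal and membrane glycoprotein gene, read 7.00, 6.40, 6.64 and 6.76 in KO mice 1 to 4, against 5.54, 5.57, 5.51 and 5.25 in WT mice 1 to 4. It rose by 1.23 ± 0.12 (SE, limma, adjusted p = 0.00226), and its WT values lay below the medians of all probe sets, 5.79 to 5.89. Cd63, a late endosomal tetraspanin gene, read 10.13, 9.68, 9.98 and 10.13 in KO mice 1 to 4, against 8.22, 8.83, 8.62 and 8.77 in WT mice 1 to 4. For both genes KO mouse 2 was the lowest KO liver, and every KO liver lay above every WT liver. Cd63 rose by 1.37 ± 0.14 (SE; limma, adjusted p = 0.00253). Cln3, a lysosomal membrane protein gene, read 9.48, 9.20, 9.35 and 9.12 in KO mice 1 to 4, against 8.96, 8.73, 8.68 and 8.76 in WT mice 1 to 4. It rose by 0.50 ± 0.10 (SE; limma, adjusted p = 0.0384). Its difference stayed between 0.44 and 0.56 over the 19 alternatives. The call was lost in 9 of them, without any 1 of KO mice 1, 2 and 3 or WT mice 2, 3 and 4, without both mouse 1 arrays, and against either kind of control alone, with adjusted p of up to 0.215 (limma).

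Among the targets that did not pass, the hexosaminidase gene Hexa stood at 0.61 ± 0.14, the sialidase gene Neu1 at 0.43 ± 0.10 and the peptidase gene Tpp1 at 0.41 ± 0.10, with adjusted p of 0.0603, 0.0565 and 0.0671 (limma). These 3 were named after their values were seen, as they passed under other variance models or filters. On the negative side Wipi1, an autophagy gene, stood at -0.31 ± 0.10 (limma, adjusted p = 0.169).

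**Figure D4:**
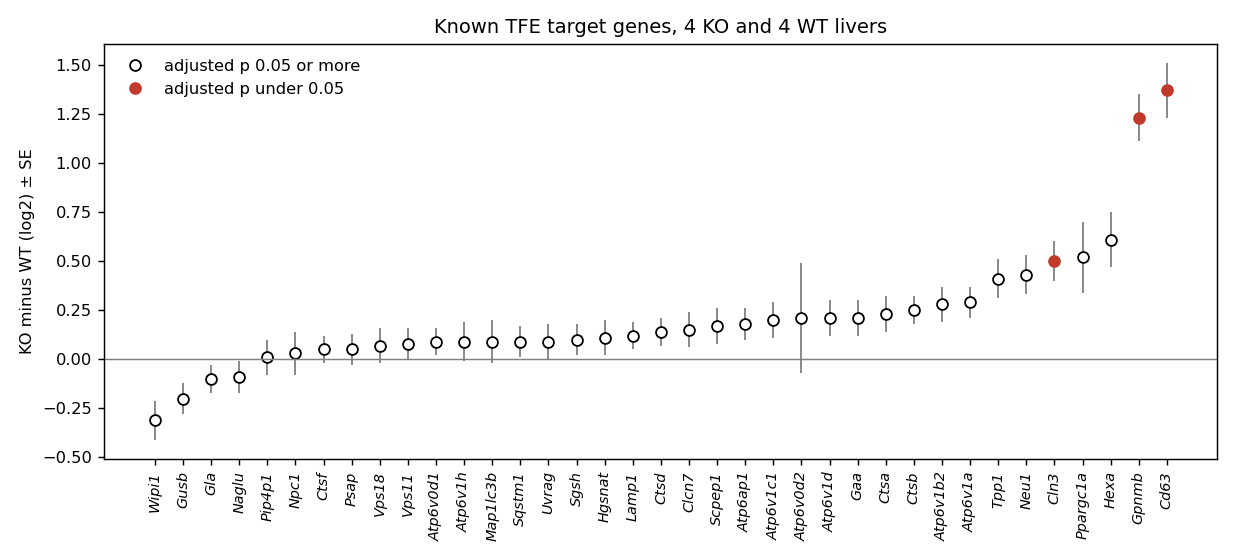
Difference, KO minus WT (log2, y axis) with limma standard errors, of the 37 measured TFE target genes in order of size, filled red where the adjusted p was under 0.05. Cd63 and Gpnmb stand apart at 1.37 and 1.23, Cln3 is the remaining call at 0.50, and 33 of 37 points lie above 0.

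Gpnmb, Cd63 and Mitf are also active in macrophages, and markers of other cells were read beside them. Over all genes 57.2% were positive, and 16.7% had an unadjusted p under 0.05 in either direction (limma). The counts below are small and stand beside those shares. None of 9 Kupffer cell and macrophage markers passed (limma, 1 at an unadjusted p under 0.05), and 8 were positive. Their mean level ran from 9.54 to 10.11 in KO and from 9.44 to 10.02 in WT livers. The macrophage glycoprotein gene Cd68 stood at 0.36 ± 0.09 (limma, adjusted p = 0.0921). The 6 measured lymphocyte markers were all positive, 3 at an unadjusted p under 0.05, and did not pass (limma), at mean levels of 6.04 to 6.37 in KO and 5.81 to 5.98 in WT livers. The 5 sinusoidal endothelium markers were all positive, 2 at an unadjusted p under 0.05 (Clec4g at 0.17 ± 0.08 and Lyve1 at 0.37 ± 0.14), at mean levels of 10.04 to 10.16 in KO and 9.87 to 10.05 in WT livers. None of them passed (limma). The 5 skeletal muscle markers were all positive, 1 at an unadjusted p under 0.05, and did not pass either, at 5.89 to 6.25 in KO and 5.74 to 5.88 in WT livers. Of 6 neutrophil markers 5 were positive, and of 7 stellate cell markers 2. Of 4 measured cholangiocyte markers 2 were positive, and of 2 measured erythroid markers 1. None of these passed. In these lists 1 neutrophil marker and 1 cholangiocyte marker had an unadjusted p under 0.05, both on the lower side. They were the dim Ly6g at -0.31 ± 0.12 and Sox9 at -0.29 ± 0.13 (limma, adjusted p of 0.225 and 0.279). Of 5 mast cell markers 4 were positive, 1 at an unadjusted p under 0.05 (Cpa3 at 0.39 ± 0.11; limma, adjusted p = 0.118). None of the mast cell markers passed, and all but Kit were dim. Their mean level, Kit included, ran from 4.71 to 4.93 in KO and from 4.59 to 4.73 in WT livers. The part of these cells in the differences of Rragd and the TFE targets was not tested. Of 6 hepatocyte markers 3 were positive and none passed, with 1 lower at an unadjusted p under 0.05 (limma). Their mean levels were 13.05 to 13.15 in KO and 13.11 to 13.18 in WT livers. Alb read 13.85 in KO and 13.84 in WT livers, near the highest value of the arrays, 13.88, where a change could hardly show. Serpina1a, a secreted protease inhibitor gene, stood at -0.32 ± 0.12 without overlap (limma, adjusted p = 0.226).

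The genes nearest to Rragd were sought by the root mean square difference of values centred on each gene's own mean over the 8 arrays. This measure finds genes of like size and pattern of change. The nearest genes were sought without predicted, RIKEN, microRNA, small nucleolar RNA and olfactory or vomeronasal receptor symbols. They were the annexin gene Anxa8 at 0.163 log2 units, Gpnmb at 0.210, Cd63 at 0.253, the desmosomal cadherin gene Dsg1c at 0.260, Cln6, which encodes a membrane protein needed for lysosome function, at 0.289, and Psat1, an enzyme gene of serine synthesis, at 0.340. Their differences between the groups were 1.31, 1.23, 1.37, 1.70, 1.19 and 0.77, and follow from the way they were found. So does the low place of KO mouse 2, the lowest KO liver for each of them and for Rragd. The order of the other livers differed between the genes.

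**Figure D5:**
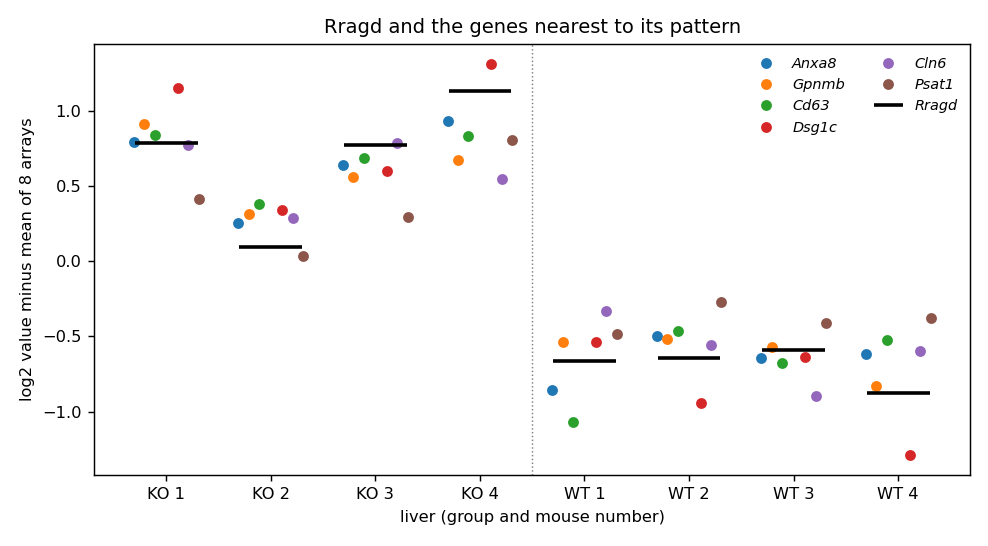
Log2 values minus the gene's mean over 8 arrays (y axis) of Rragd (black bars) and the 6 genes nearest to its pattern (points) in the 4 KO and 4 WT livers. All 7 genes lie above 0 in KO livers and below 0 in WT livers, and KO mouse 2 is the lowest KO liver for each. The genes were chosen, after a filter of symbols, for nearness to Rragd over these arrays, which fixes this likeness.

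Sco1, the targeted gene, averaged 7.59 ± 0.10 in KO and 8.00 ± 0.15 in WT livers (SD, n = 4 each) without overlap, a difference of -0.41 ± 0.09 with adjusted p = 0.0633 (limma) and an exact two-sided permutation p of 0.0286, the smallest that 4 against 4 arrays can give. Which exons its probe set reads was not known here. Over all genes 96 rose and 159 fell, so 37.6% of the calls were higher, and 24.1% (86 and 271) after the arrays were centred on their medians. Arrays correlated across genes at 0.9915 or more among KO livers and 0.9939 or more among WT livers.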

How the data were processed

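The authors deposited RMA expression values for 39137 probe sets on 8 arrays, and the submitters' processing notes name oligo, version 1.24, as the tool. RMA subtracts background, equalises the arrays by quantiles and summarises probes, which pulls large differences toward 0. The deposited values run from 1.28 to 13.88 and were taken as log2 from the RMA method, since no label states the scale. Neither chip definition nor genome build is given in the sources used here. By the platform annotation, 23521 probe sets had 1 symbol, 1814 several and 13802 none, and 23328 were found by gene number in the RefSeq table of GRCm38.p6. The probe set of highest mean stood for the 1082 genes with several.

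Differences, KO minus WT by title, were tested two-sided with lmFit and eBayes (limma 3.58.1, R 4.3.3), adjusted by Benjamini-Hochberg over 22180 genes, with a threshold of 0.05. A fit with 3 genotype classes compared the control classes. Named are the 10 members, Sco1, up to 3 genes of smallest p and any call per pathway list, and up to 2 genes per marker list. Also named are the 6 genes nearest to Rragd after the symbol filter given above. The members and lists were chosen with earlier results of these data known. In simulated data with 22180 genes this fit recovered 71.4% of changes of 0.5 and 99.4% of changes of 1 log2 unit, with 5.11% false calls. Such recovery depends on the share of changed genes and the spread that were simulated, and may differ in these arrays. Here Hexa at 0.61 ± 0.14 did not pass. Labels give no sex, litter, slide or scan date, and precision is limited by 4 arrays per group. Nothing states that replicates are separate litters, so p-values measure the spread between these mice. Python 3.11.15 with pandas 2.3.3 handled the files.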

Additional observations from a re-analysis of the deposited data

Results flagged for a closer look

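An array far from the other 3 of its group was looked for among the members and other named genes by the gap to its nearest neighbour over the group's range, against Dixon's critical value of 0.829. Of 72 groups checked 5 held one, and chance gives about 1 in 20, or 3.6. Of the 20 groups of the 10 members 3 did, where the same rate of about 1 in 20 applies. The groups share arrays, so they are not independent. WT mouse 1 read 8.68 for Flcn, with the other WT mice at 7.89 to 8.02, and 9.24 for Fnip1, with the others at 8.78 to 8.84. WT mouse 4 read 7.70 for Mitf, with the others at 7.36 to 7.39. KO mouse 2 read 10.57 for the lysosomal channel gene Mcoln1, with the other KO mice at 10.85 to 10.87. WT mouse 4 read 5.25 for Gpnmb, with the others at 5.51 to 5.57.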

How the results depend on the processing

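The difference of Rragd lay between 1.24 and 1.59 over the 19 alternatives, and none of the other 9 members passed under any of them. The count of genes called was 255, and 459 with a trended robust variance, 442 among genes above the median level, 47 with controls without Cre alone, 29 with Cre-carrying controls alone, 65 without both mouse 1 arrays (chosen after seeing the data), and 91 to 175 with 1 array left out. TFE target calls numbered 3, where 1.15% of all genes passed. They numbered 7 with the trended robust variance (2.07% of all genes), adding Ctsb, Hexa, Neu1 and Tpp1. Among genes above the median level 6 of 36 were called, where 3.99% of 11090 genes passed. Those 6 were Atp6v1a, Cd63, Cln3, Hexa, Neu1 and Tpp1, and Gpnmb was too dim to be tested there. With array weights 5 were called (1.7% of all genes). As each array was left out, 2 to 4 were called (0.41% to 0.789% of all genes). Sco1, at -0.41, passed with the trended robust variance (adjusted p = 0.0464, limma) and among genes above the median level (-0.41, adjusted p = 0.036), and ran from -0.46 to -0.34 with 1 array left out. Members near 0 changed sign without any call. Rraga stood at 0.05 with quantile normalization repeated, 0.07 with Cre-carrying controls alone and -0.11 to 0.06 with 1 array left out. Fnip1 stood at -0.04 with Cre-carrying controls alone, and Tfeb at -0.0044 with quantile normalization repeated. Tfe3 stood at -0.02 with arrays centred, -0.02 with controls without Cre alone, -0.0035 without both mouse 1 arrays and -0.05 to 0.05 with 1 array left out. Mitf stood at 0.01 with quantile normalization repeated, 0.05 with Cre-carrying controls alone and -0.07 to 0.05 with 1 array left out. The causes were not tested. Mouse numbers did not pair the arrays throughout. Deviations from the group means correlated at 0.27, -0.02, 0.03 and -0.10 for mice 1 to 4. Arrays of different mouse number correlated at -0.15 to 0.12, so the mouse 1 arrays were the most alike and the others were not paired. With mouse number as a block 210 genes, 3 TFE targets and 0 of the 9 members were called, with Rragd at 1.39. Dim probe sets such as those of Rragb limit what can be seen.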

Other observations

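The genes beside Rragd on chromosome 4 were read to see whether its neighbourhood moved with it. The 2 nearest measured genes before it, Lyrm2 and Ankrd6, stood at -0.23 ± 0.10 and 0.06 ± 0.08, and the 2 nearest after it, 4933421O10Rik and Ube2j1, at 0.09 ± 0.09 and 0.02 ± 0.08 (SE; KO minus WT, limma, adjusted p of 0.277, 0.72, 0.666 and 0.946). Tfec, the remaining gene of the TFE family, ran from 7.58 to 8.01 in KO and from 7.72 to 8.07 in WT livers, a difference of -0.05 ± 0.11 (limma, adjusted p = 0.856). These 5 genes were named after their values were seen. Promoter windows were found for 29 of the 37 measured TFE targets, and 12 of their 33 windows held TCACGTG on either strand, against 3.77% of all windows. Gene lists of such targets were partly drawn up from that motif, so the share is a description only.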
